A study of Mus musculus with 2 samples.

Results

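The endothelial and pericyte genes described here are 10 genes picked by symbol, Cdh5, Pecam1, Kdr, Flt1, Tek, Tie1, Cldn5, Esam, Pdgfrb and Rgs5, and all 10 were found among the 21896 genes of the deposited values. Of these, 8 were taken as endothelial genes and the last pair as pericyte genes, and their expression in other cells was not tested. They were read in RNA of the germinal layer of the E13.5 cortex, its ventricular and subventricular zones (VZ–SVZ), in 1 Rcor2fl/fl library, called the control from here on, and 1 Rcor2cko library. Both genotypes are on a C57/BL6 background and carry floxed Rcor2 alleles, and they came from crosses of Rcor2fl/+ mice bearing NesCre. In Rcor2cko the Nestin promoter drives Cre in the neural lineage, in which the floxed exons of this LSD1 co-repressor are deleted. How many embryos went into each library is not given in the sources used here, so that a genotype is 1 sample, no test of genotype is possible and every comparison below is one of these 2 libraries.

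Blood vessels enter the embryonic cortex from the network around the neural tube and branch in the VZ–SVZ. Their lining is made of endothelial cells, which are held together by adherens and tight junctions and read growth factors from the neural tissue through receptor tyrosine kinases. Pericytes wrap the outside of the capillaries, are recruited by PDGF-B from the endothelium and help to form the blood–brain barrier. Both cell types are a small part of a dissected VZ–SVZ. In bulk RNA, a different number of vessel cells and a different amount of RNA per cell cannot be told apart.

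Levels are given as FPKM, that is fragments scaled to transcript length and library depth, so that they can be compared between genes. Where a pair of values is given, the control stands before Rcor2cko. A change is log2 of the Rcor2cko over the control FPKM after adding 0.1 to both, and a gene counted as changed beyond 1.5-fold. The low FPKM values fall on steps of whole fragments, which gave back scaling totals of 18841684 fragments (control) and 25479853 (Rcor2cko). Among values of at most 100 fragments, 99.3% and 99.4% lay within 0.1 of a whole number. With these fragments each gene has a 95% exact (Clopper-Pearson) interval of its log2 ratio without the added 0.1, which covers counting error only. A level of 3 fragments, taken as the smallest that could be seen, corresponds to 0.0882 and 0.0654 FPKM for a transcript of 2000 nt. Rcor2 itself was at 90.6 and 55.7 FPKM over the whole gene, a change of -0.70. This value also counts exons outside the LoxP sites. The paper reports that RNA of the exons between these sites was absent in Rcor2cko at E13.5, and the protein depleted. The defining genes of the tissue were present, with Vim at 308 and 303 FPKM and Fabp7 at 372 and 539 FPKM. Xist was at 177 and 0.109 FPKM, so that a difference in sex and the genotype cannot be told apart. All 10 vessel genes are autosomal.

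In mm9 (GENCODE vM1) the endothelial junction genes lie apart from each other, Cdh5 at chr8:106625525-106668402, Pecam1 at chr11:106515531-106611942, Esam at chr9:37335663-37345904 and Cldn5 at chr16:18776940-18778353. Kdr, at chr5:76328852-76374483, and Flt1, at chr5:148373180-148537587, are on the minus strand of the same chromosome and have 30 exons each in their longest annotated transcript. Tek, at chr4:94405980-94541667, and Tie1, at chr4:118143796-118162666, share chromosome 4 on opposite strands. Rgs5 is at chr1:171585632-171625944. Cldn5 is the compact member, with 1 exon in 1.41 kb. No locus of the 10 overlapped that of another gene in the deposited values.

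The stretch of 250 bases before the transcription start was available for 6 of the 10 genes from RefSeq (GRCm38.p6), and 4 of them are shown 5′ to 3′ in the direction of the gene. Kdr (chr5:75978456-75978705, minus strand) and Flt1 (chr5:147726012-147726261, minus strand) are shown because they encode the VEGF receptors whose levels differed, Cldn5 (chr16:18776597-18776846, plus strand) and Rgs5 (chr1:169655251-169655500, plus strand) because they were the highest endothelial and the highest pericyte gene. Capitals mark GGAA or its complement TTCC, the core of sites for ETS factors, a family with many members in endothelium.
Kdr: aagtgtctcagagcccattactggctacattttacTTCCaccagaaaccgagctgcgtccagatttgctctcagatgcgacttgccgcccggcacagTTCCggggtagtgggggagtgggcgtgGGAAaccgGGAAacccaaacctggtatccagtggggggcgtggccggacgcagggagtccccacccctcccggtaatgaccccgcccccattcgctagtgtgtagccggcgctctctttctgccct
Flt1: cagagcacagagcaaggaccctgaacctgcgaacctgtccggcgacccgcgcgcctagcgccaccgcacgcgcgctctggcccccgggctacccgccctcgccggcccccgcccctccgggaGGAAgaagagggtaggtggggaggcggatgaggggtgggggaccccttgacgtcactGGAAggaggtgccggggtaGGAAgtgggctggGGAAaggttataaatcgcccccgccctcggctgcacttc
Cldn5: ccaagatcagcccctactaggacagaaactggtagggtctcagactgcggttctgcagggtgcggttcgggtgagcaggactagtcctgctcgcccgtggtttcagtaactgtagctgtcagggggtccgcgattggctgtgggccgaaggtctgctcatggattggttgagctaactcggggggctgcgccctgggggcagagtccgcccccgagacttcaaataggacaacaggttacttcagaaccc
Rgs5: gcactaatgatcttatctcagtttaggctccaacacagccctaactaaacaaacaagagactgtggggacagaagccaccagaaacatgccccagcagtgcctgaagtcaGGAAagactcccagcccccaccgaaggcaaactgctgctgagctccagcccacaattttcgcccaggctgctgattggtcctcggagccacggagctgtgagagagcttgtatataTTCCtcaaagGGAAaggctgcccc

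GGAA was found on either strand 4 times in the stretch of Kdr, 4 times in that of Flt1, 3 times in that of Rgs5 and 0 times in that of Cldn5. Tie1 held 7 and Tek 2. Thus 5 of 6 promoters held it, against 93.4% of 32851 promoters with a median count of 3, so that its presence is ordinary. CCGCCC, a GC-box core, was in 3 of 6 (Kdr, Flt1 and Cldn5) against 32.7% of all promoters. The letters TATAAA were found in 1 of 6, Flt1, against 12.4%. A core for GATA factors, AGATAA, was found in 1 of 6, Rgs5, against 9.99%. Both strands were searched for each motif. Of these 6, Flt1 had the highest GC content, at 70.4%, and Tek the lowest, at 51.2%, against a median of 52.4% over all promoters. Cdh5, Pecam1, Esam and Pdgfrb had no entry.

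All 10 genes were above 1 FPKM in both libraries, and their levels spanned about the same range in each. In the control Cldn5 was highest, at 12.4 FPKM, and Flt1 lowest, at 1.11 FPKM. In Rcor2cko the highest was Rgs5, at 12.8 FPKM, and the lowest again Flt1, at 1.304 FPKM. From the third place down, the order was the same in both libraries, Kdr, Pecam1, Esam, Cdh5, Tie1, Pdgfrb, Tek and Flt1. Cldn5 and Rgs5 changed places at the top, where their deposited 95% FPKM intervals overlapped in both libraries. Most neighbours in this order cannot be told apart in this way. In the control only Rgs5, at 9.50 FPKM, and Kdr, at 4.81 FPKM, were neighbours with separate intervals. In Rcor2cko Cldn5 and Kdr were separate, at 12.7 and 4.95 FPKM, and so were Pdgfrb and Tek, at 2.704 and 1.53 FPKM. The plot of levels by gene shows the pair of Cldn5 and Rgs5 above the other 8 genes in both libraries.

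**Figure D1:**
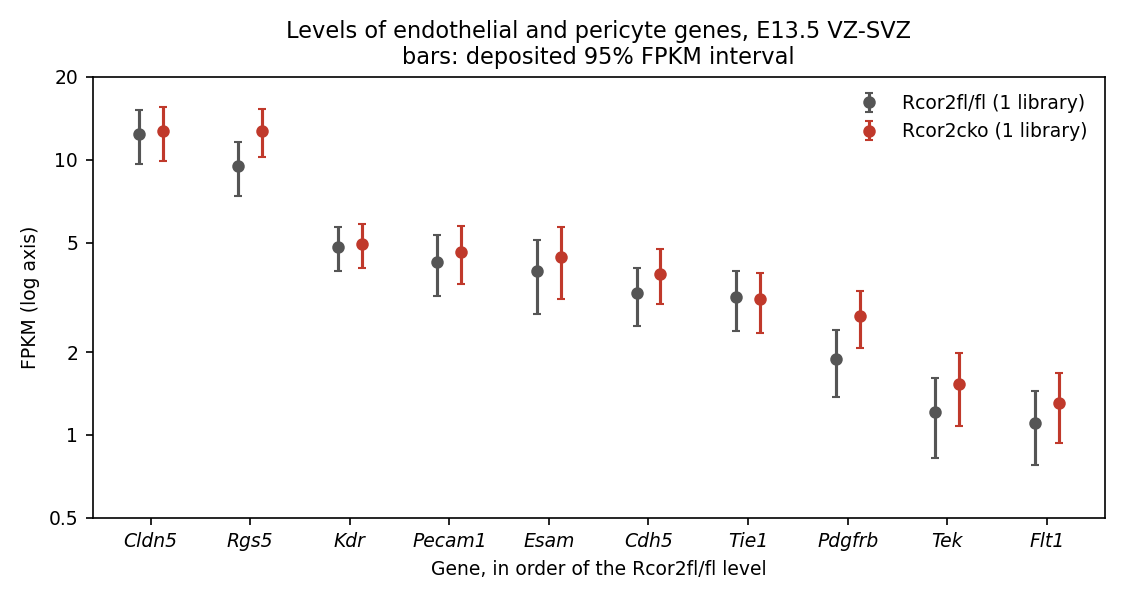
FPKM on a log axis of the 10 endothelial and pericyte genes, in order of their level in the control, with 1 library per genotype (grey, Rcor2fl/fl, red, Rcor2cko) and bars for the deposited 95% FPKM interval. Cldn5 and Rgs5 stand above the other 8 genes, and the bars of the 2 libraries overlap for all 10 genes.

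None of the 10 genes was past 1.5-fold in either direction. Of the 11777 genes that reached 1 FPKM in either library, 5.54% were past it, 3.79% upwards and 1.76% downwards. The 10 genes had a median change of 0.19, between -0.024 for Tie1 and 0.49 for Pdgfrb, and that of all 11777 genes was -0.033. Of the 10, 9 were higher in Rcor2cko and 1 lower, where 42.4% of all genes were higher. The lower gene, Tie1, was at 0.019 and thus also higher when the libraries were scaled to the same upper quartile. The counting interval included 0 for 8 of the 10 genes, all of them endothelial, and excluded it for both pericyte genes. Of 8460 genes with an interval, it lay above 0 for 14.0% and below 0 for 23.2%. For 7 of the 10 genes the interval lay within 1.5-fold in both directions, so that a larger difference in counting terms is outside it. The exceptions were Tek, Pdgfrb and Rgs5, whose intervals reached 1.63-, 1.72- and 1.56-fold. The share of all genes with an interval within 1.5-fold was not computed.

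Among the junction genes, Cdh5 encodes VE-cadherin, the adherens junction protein of endothelium. It was at 3.28 and 3.86 FPKM, read from 234 and 372 fragments. Its change of 0.23 had an interval of -0.0038 to 0.48, which only just includes 0. Pecam1, the adhesion molecule CD31, was at 4.27 and 4.64 FPKM, a change of 0.12. Pecam1 has 2 RefSeq transcripts in the control, of which NM_001032378 gave 66.7% of the level and NM_008816 33.3%. Since the Rcor2cko values are given per gene, its 362 fragments there are approximate, with bounds of 360 and 367 from the transcript lengths, against 247 in the control. Esam, an adhesion molecule of endothelial tight junctions, was at 3.93 and 4.42 FPKM, a change of 0.16 (interval -0.17 to 0.51). Cldn5, the claudin that seals the tight junctions of brain endothelium, was at 12.4 and 12.7 FPKM, a change of 0.040 (interval -0.18 to 0.26). The 4 junction genes were thus all slightly higher in Rcor2cko, each with an interval that includes 0.

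The VEGF receptors were at unequal levels. Kdr, which encodes VEGFR2, the main signalling receptor for VEGF-A, was at 4.81 and 4.95 FPKM, from 476 and 662 fragments. The change of Kdr was 0.041 on the log2 scale with an interval from -0.13 to 0.22, the narrowest of the 10. Flt1 encodes VEGFR1, which binds VEGF-A and PlGF and limits the access of VEGF-A to VEGFR2. The level of Flt1 was 1.11 and 1.304 FPKM, a change of 0.22 (interval -0.092 to 0.57). It is listed as 1 transcript, NM_010228, so that a soluble form was not read separately. The level of Kdr was 4.34 times that of Flt1 in the control and 3.80 times in Rcor2cko. The ratio of these ratios, 0.874 from the fragments, had a counting interval from 0.674 to 1.13 and includes 1.

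The Tie receptors showed a similar imbalance. Tie1, an orphan receptor that forms complexes with Tie2, was at 3.17 and 3.12 FPKM, from 220 and 292 fragments. Its change of -0.024 had an interval of -0.28 to 0.23. Tek, which encodes the angiopoietin receptor Tie2, was at 1.21 and 1.53 FPKM, from 102 and 174 fragments. Tek had the largest change of the endothelial genes, 0.31 on the log2 scale with an interval from -0.024 to 0.704. Of all genes compared, 8.69% had a change at least as high. The level of Tie1 was 2.61 times that of Tek in the control and 2.03 times in Rcor2cko, and the ratio of these ratios, 0.778, had an interval from 0.569 to 1.06.

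Both pericyte genes were higher in Rcor2cko by more than counting error. Pdgfrb, the receptor through which PDGF-B recruits pericytes, was at 1.89 and 2.704 FPKM. This was a change of 0.49, with an interval from 0.26 to 0.78 on 186 and about 359 fragments. Its transcripts NM_008809 and NM_001146268 gave 75.2% and 24.8% of the Rcor2fl/fl level, and they differ by only a few nt in length, so that the approximation for Rcor2cko lay between 358.9 and 359.1 fragments. Rgs5, a regulator of G protein signalling and a widely used pericyte marker, was at 9.50 and 12.8 FPKM. Its log2 change was 0.42 with an interval from 0.22 to 0.64, on 289 and 523 fragments. Changes at least as high were found in 4.88% of all genes for Pdgfrb and 5.90% for Rgs5. Counting intervals that leave out 0 are common here, with 14.0% of 8460 genes above 0 and 23.2% below. The deposited FPKM intervals, which are wider, overlapped between the libraries for both genes, as they did for all 10, and were separate for 3.46% of all genes.

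**Figure D2:**
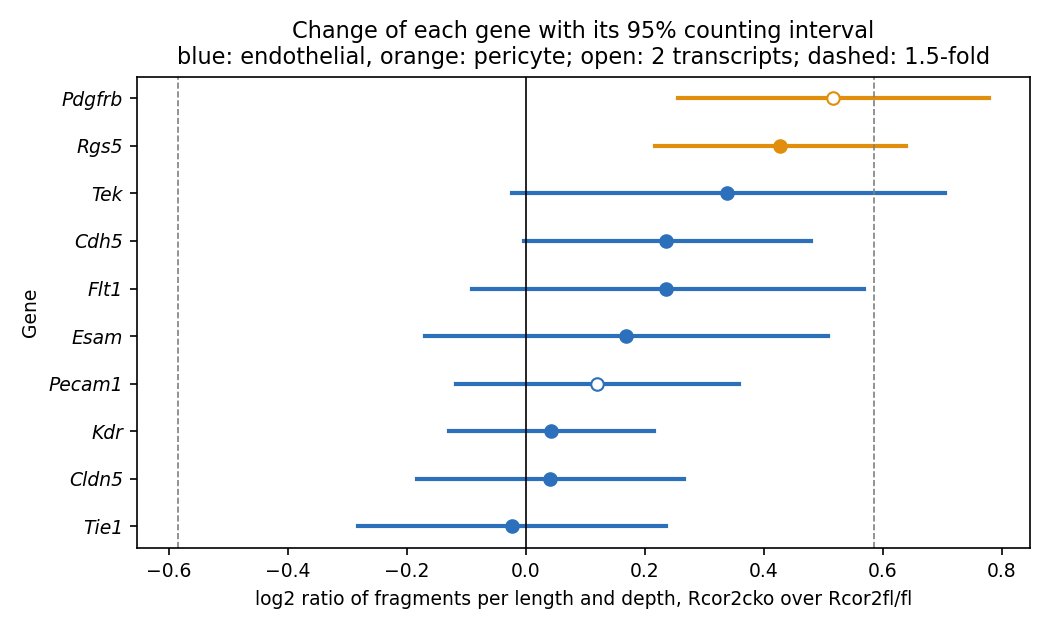
Log2 ratio of fragments per length and depth, Rcor2cko over Rcor2fl/fl (1 library each), of the 10 genes with 95% counting intervals, endothelial genes in blue and pericyte genes in orange, open points for the 2 genes with 2 transcripts, dashed lines at 1.5-fold. The intervals of Pdgfrb (0.26 to 0.78) and Rgs5 (0.22 to 0.64) lie above 0, and those of the 8 endothelial genes include it.

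Added up, the 8 endothelial genes came to 34.2 and 36.5 FPKM, a ratio of 1.07. The fragments pooled over these genes, 1814 and 2644, weigh the genes otherwise than FPKM does. Their ratio, scaled for depth and length, had a counting interval of 1.02 to 1.15. Without Cldn5, the highest of them, the ratio was 1.09. The 2 pericyte genes summed to 11.4 and 15.5 FPKM, a ratio of 1.36. The ratio of their pooled fragments, 475 and 882, had an interval from 1.23 to 1.54. The pericyte sum was thus 0.334 of the endothelial sum in the control and 0.423 in Rcor2cko. The ratio of these shares was 1.27, with an interval from 1.12 to 1.45 that covers counting error only. Rgs5 over the 7 endothelial genes with 1 transcript, which needs no approximation, gave 1.24 with an interval from 1.06 to 1.46. With no second library of either genotype, how far 2 libraries of 1 genotype differ in this ratio is not known.

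**Figure D3:**
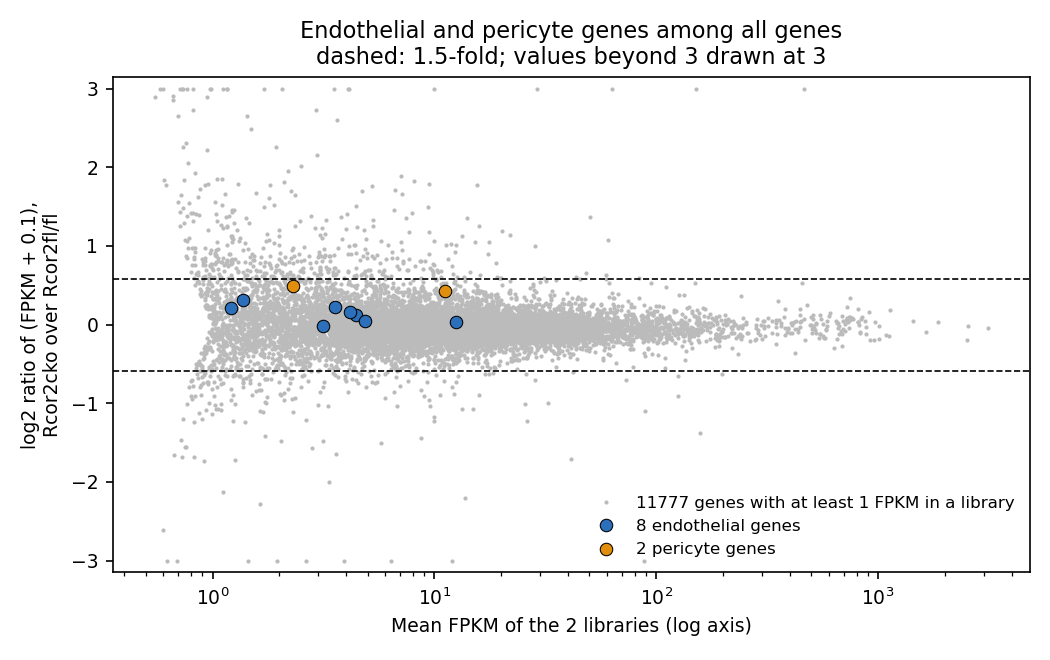
Change on the log2 scale (0.1 added to FPKM) in Rcor2cko relative to the control, against the mean FPKM of the 2 libraries (log axis) for the 11777 genes reaching 1 FPKM in a library, with the 8 endothelial genes in blue, the 2 pericyte genes in orange and dashed lines at 1.5-fold. The 10 genes lie between -0.024 and 0.49, inside the dashed lines and among genes of similar level.

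Further genes of each cell type are given as lists, on the same filter of 1 FPKM in a library. A gene can pass through 1 library alone, and the filter then favours those that are high there. For such genes a place among those past 1.5-fold is not independent of the filter. Of 37 other endothelial genes, 36 were found and 20 passed, of which 1 was past 1.5-fold upwards and none downwards, with a median log2 change of 0.081. The gene past it was Ets1, an ETS transcription factor not restricted to endothelium, at 2.53 and 4.09 FPKM. The 2 with the highest levels were S1pr1, a sphingosine phosphate receptor, at 7.43 and 7.79 FPKM, and Ramp2, part of the adrenomedullin receptor, at 5.32 and 6.14 FPKM. Of 24 genes of the blood–brain barrier and brain endothelium, 19 passed, 1 was past 1.5-fold upwards and none downwards, and the median was 0.064. Itm2a, a membrane protein gene, was past it, at 8.49 and 13.0 FPKM with an interval of 0.38 to 0.85. The glucose transporter gene Slc2a1 was at 18.9 and 19.9 FPKM and Bsg, which encodes basigin, at 85.4 and 96.2 FPKM. Neural cells also express Slc2a1 and Bsg, so that these levels are not of vessels alone.

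Of 26 other pericyte and mural genes, 12 passed the filter, 2 were past 1.5-fold upwards and 1 downwards, and the median was 0.14. Higd1b, a gene of brain pericytes, was at 0.59 and 1.25 FPKM and passed the filter through Rcor2cko alone. Cd248, which encodes endosialin, was at 1.08 and 1.80 FPKM with an interval from 0.24 to 1.26. Rgs4, a relative of Rgs5 that neurons express as well, was lower, at 8.25 and 5.14 FPKM. The 2 with the highest levels, Mcam, an adhesion molecule of vessels, and Gja1, which encodes the connexin of radial glia and mural cells, were at 9.74 and 10.4 FPKM and at 8.48 and 9.14 FPKM. The remaining 9 of the 12 were within 1.5-fold. Of the 12, 9 were higher in Rcor2cko by any amount and 3 lower, where 42.4% of all genes were higher. Besides Higd1b, Cd248, Mcam and Gja1, the higher genes were Vtn, Abcc9, Ednra, Kcnj8 and Ndufa4l2. Their log2 changes were 0.39, 0.38, 0.31, 0.16 and 0.12, in this order. The interval of Vtn, from -0.00074 to 0.82, only just includes 0, and those of Ednra and Kcnj8 include it. Abcc9 and Ndufa4l2 have no interval. The lower 3, unlike Pdgfrb and Rgs5, were Rgs4, S1pr3 and Notch3. S1pr3, a sphingosine phosphate receptor, was at 1.08 and 0.715 FPKM with an interval from -1.05 to -0.13, and passed the filter through the control alone. Notch3, a Notch receptor, was at 6.88 and 6.23 FPKM with an interval from -0.27 to -0.023. How much of its level came from mural cells was not tested. Under the filter, genes of the list went in both directions. Among those that were lower, Anpep, which encodes CD13, was at 0.608 and 0.256 FPKM on 37 and 21 fragments, with an interval from -2.096 to -0.44. Cspg4, which encodes NG2, was at 0.703 and 0.54 FPKM with an interval that includes 0. Summed over all 26, the list came to 49.3 and 50.1 FPKM, a ratio of 1.02, beside 1.36 for Pdgfrb and Rgs5. Most of this sum came from the highest genes, Mcam, Gja1, Rgs4 and Notch3. Neurons express Rgs4 and radial glia Gja1, so that the ratio of 1.02 is not of mural cells alone. Of the markers of contractile smooth muscle, Cnn1 was listed at 0 in both libraries. Acta2, at 0.0335 and 0.0497 FPKM, and Myh11, at 0.0664 and 0.043 FPKM, were near 0. Tagln, at 0.534 and 0.595 FPKM, Mylk, at 0.565 and 0.547 FPKM, and Des, at 0.19 and 0.141 FPKM, were higher but under the filter.

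Among 21 genes of tip cells and of arterial or venous identity, 16 passed, 2 were past 1.5-fold upwards and 1 downwards, and the median was -0.14. Jag1, a Notch ligand, was at 1.67 and 2.94 FPKM, and Nr2f2, a transcription factor of veins and of several forebrain regions, at 3.33 and 6.18 FPKM. Hey2, a Notch target of arteries, was at 1.41 and 0.64 FPKM, with an interval from -1.76 to -0.53, and passed the filter through the control alone. Efnb2, a ligand for Eph receptors on arteries, and Nrp1, a co-receptor for VEGF-A and semaphorins, had the highest levels, at 52.8 and 51.2 FPKM and at 34.3 and 28.5 FPKM. These lie far above any vessel receptor here, and both genes are known from neural cells too.

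The ligands of the 10 genes' receptors were read in a list of 26 angiogenic ligands and receptors, of which 19 passed, 4 were past 1.5-fold upwards and 1 downwards, and the median was 0.089. Vegfa, the ligand of Kdr and Flt1, was at 14.9 and 15.9 FPKM, a change of 0.089. Pgf, which encodes PlGF and binds Flt1, was at 0.733 and 1.72 FPKM, from only 19 and 60 fragments, with an interval from 0.47 to 2.06. Angpt1, the activating ligand of Tek, was at 0.643 and 1.08 FPKM on 47 and 107 fragments, a change of 0.67 (interval 0.25 to 1.28). Both Pgf and Angpt1 passed the filter through Rcor2cko alone. Angpt2, the context-dependent antagonist, was under the filter at 0.209 and 0.138 FPKM. Pdgfb, the endothelial ligand of Pdgfrb, was at 1.62 and 1.604 FPKM, a change of -0.016 (interval -0.44 to 0.41). This interval overlaps that of Pdgfrb, and the difference between receptor and ligand was not tested. Pdgfa, whose product binds the other PDGF receptor, was at 1.87 and 4.24 FPKM, a change of 1.14.

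Wnt7a and Wnt7b are made by neural progenitors and act on brain endothelium. Wnt7a was at 7.81 and 10.1 FPKM, a change of 0.37 (interval 0.204 to 0.55), and Wnt7b at 54.3 and 71.9 FPKM, a change of 0.404. Both were within 1.5-fold. The remaining genes of this list past it were Cxcl12, a chemokine gene of meninges and of some cortical cells, at 12.6 and 19.5 FPKM, and Tgfb2, lower at 3.62 and 2.37 FPKM. Tgfbr1, a receptor for TGF-beta ligands, had the highest level after Wnt7b, at 24.2 and 25.5 FPKM.

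**Figure D4:**
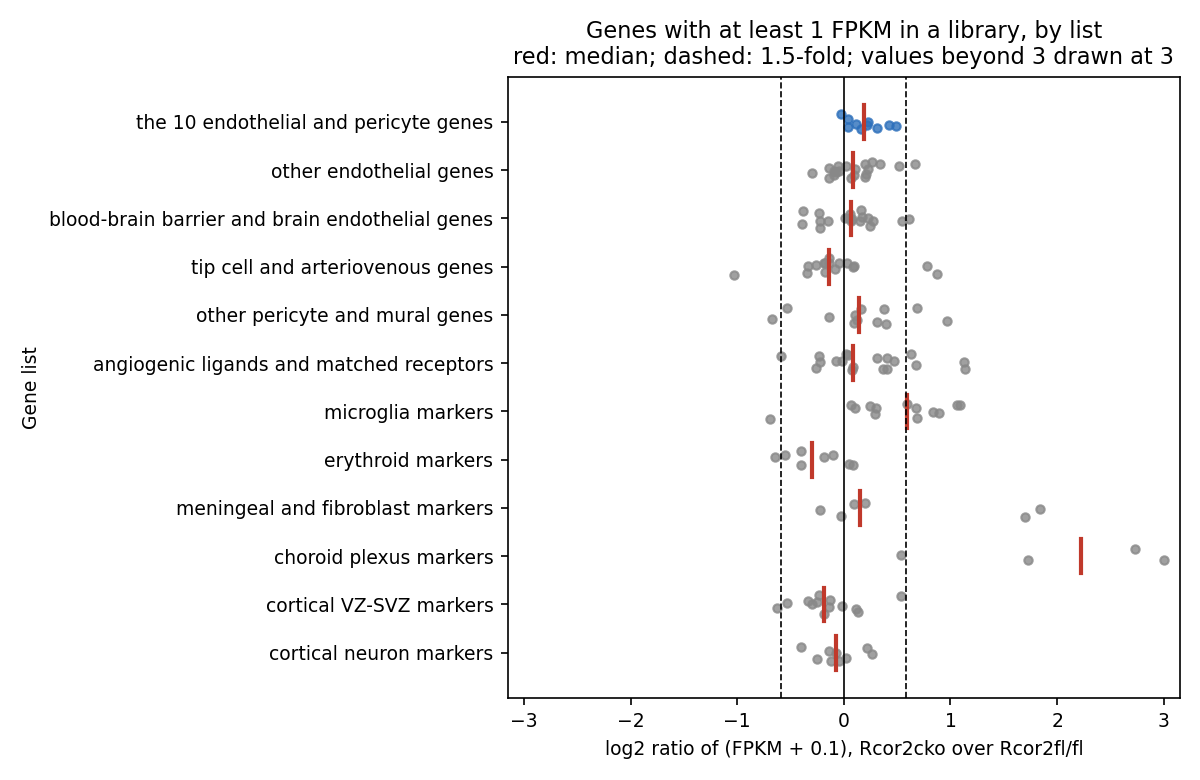
Change on the log2 scale (0.1 added to FPKM) in Rcor2cko relative to the control, 1 library each, for genes reaching 1 FPKM in a library, by gene list, each point a gene, red bars medians, dashed lines at 1.5-fold. The median of the 10 endothelial and pericyte genes is 0.19, against 0.596 for microglia markers and -0.297 for erythroid markers. That of choroid plexus markers, 2.23, is over only 4 genes. Of these, Ttr, Kcne2 and Aqp1 passed the filter through Rcor2cko alone, where they were high, so that the filter helps to set this median.

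Markers of other cells that a dissection can hold moved with the pericyte genes in part. Of 16 microglia markers 13 passed, 7 were past 1.5-fold upwards and 1 downwards, and their median was 0.596, with summed levels of 32.7 and 48.1 FPKM. P2ry12, a receptor of microglia, was at 1.09 and 2.39 FPKM, and Tyrobp, an adaptor of myeloid receptors, at 2.43 and 5.27 FPKM. C1qa and Fcgr3 were also higher, at 2.21 and 4.19 FPKM and at 1.24 and 2.04 FPKM, and Fcer1g was lower, at 2.29 and 1.37 FPKM. C1qc was at 4.14 and 6.303 FPKM, a change of 0.596. Of 11 choroid plexus markers 4 passed, 3 of them past 1.5-fold upwards, and the sum was 2.64 and 65.8 FPKM. Ttr was listed at 0 and 57.8 FPKM, Kcne2 was at 0.142 and 1.498 FPKM, Aqp1 at 0.352 and 1.396 FPKM and Enpp2 at 1.48 and 2.19 FPKM. Of these, only Enpp2 also reached 1 FPKM in the control, and the others passed the filter through Rcor2cko alone. In the control 3 of the 11, Ttr among them, were listed at 0.

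Of 16 meningeal and fibroblast markers 6 passed, with 2 past 1.5-fold upwards, a median of 0.15 and sums of 51.2 and 60.7 FPKM. Crabp2 was at 2.18 and 7.298 FPKM and Pdgfra at 0.267 and 1.22 FPKM, and neural cells can express both. Pdgfra passed the filter through Rcor2cko alone. Serpinh1, at 35.02 and 37.5 FPKM, and Igf2, at 5.58 and 6.42 FPKM, had the highest levels. The collagen genes Col1a1, at 0.0707 and 0.236 FPKM, and Col1a2, at 0.257 and 0.58 FPKM, which define these cells, were under the filter in both libraries. Both had intervals above 0, from 0.43 to 3.30 on 6 and 27 fragments and from 0.49 to 1.90 on 24 and 73. Dcn, also under the filter, was lower, at 0.533 and 0.0985 FPKM. Erythroid markers, which follow the blood left in the vessels, went the other way. Of 13 of them 12 were found and 8 passed, none past 1.5-fold upwards and 1 downwards, with a median of -0.297 and sums of 531 and 447 FPKM. That gene was Hbb-b1, at 153 and 97.5 FPKM, and Hbb-b2 was at 184 and 189.9 FPKM, though reads of these near-identical genes can be split between them. The part of these other cells, and of the dissection, in the higher level of Pdgfrb and Rgs5 was not tested.

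The neural cells around the vessels gave a background for these values. Of 13 VZ–SVZ markers none was past 1.5-fold upwards and 1 downwards, Emx2 at 21.5 and 13.9 FPKM, and their median was -0.18. Of 10 cortical neuron markers 9 were found, all within 1.5-fold with a median of -0.071. Tubb3 was at 568 and 521 FPKM and Neurod6 at 398.7 and 386 FPKM. Over the genes that reached 1 FPKM in each library, the SD of the log2 change was 0.249. It was 0.277 over those with a mean of at most 20 FPKM, the range that holds the 10 genes. Beside it stand 0.49 for Pdgfrb, 0.42 for Rgs5 and at most 0.31 for an endothelial gene. This SD is across genes of 1 pair of libraries and does not measure how far a gene differs between libraries of 1 genotype.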

How the data were processed

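RNA was isolated with RNeasy columns from the dissected VZ–SVZ and made into libraries with a stranded mRNA kit. The authors mapped the reads to mm9 with TopHat at default settings and deposited FPKM values with 95% FPKM bounds, per RefSeq transcript for Rcor2fl/fl (27641 rows) and per gene for Rcor2cko (21896 rows). The submitters' processing notes name TopHat 1.3.3 and Cufflinks 1.2.0, and the methods of the paper another version of TopHat. Whether reads were assigned by strand is not given in the sources used here.

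From these values, transcript rows were summed per gene, and the half-widths of their bounds added in quadrature. No further scaling was applied. Whole fragments were obtained for 14350 single-transcript genes of 1000 nt or longer whose status was OK, by fitting FPKM = fragments × step / (length − offset) on 585 and 598 genes with 1 fragment (offsets of 194 and 200.9 nt). For Pecam1 and Pdgfrb, the Rcor2fl/fl rows were summed and the Rcor2cko length weighted by them. The steps were tested on simulated data. Intervals are exact (Clopper-Pearson; conditional odds ratio for ratios of ratios).

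The 10 genes and the 11 other lists were chosen with earlier results of these data known. In the lists the genes past 1.5-fold (at most 6, by size of change), the 2 of highest mean FPKM and the ligands of the receptors were named. A gene that this rule would name is not reported here. Genes named beyond this were Acta2, Myh11, Cnn1, Tagln, Mylk, Des, Col1a1 and Col1a2, as defining markers under the filter. Angpt2 was named as the second ligand of Tek. S1pr3, Notch3, Anpep and Cspg4 were named as genes of the mural list that were lower, and Dcn as a fibroblast marker that was lower. Abcc9, Vtn, Ednra, Kcnj8 and Ndufa4l2 were named as genes of the mural list that were higher. All of these were chosen after their values were seen. Alternatives were pseudocounts of 1 and 0.01, median, upper-quartile and total scaling, the highest row per gene, rows of status OK, a fold of 2, separate deposited intervals, other filters (none, 1 FPKM in both libraries, 5 FPKM in a library) and the ratio of recovered fragments. The tools were scipy 1.17.1, pandas 2.3.3, numpy 2.4.6 and matplotlib 3.10.9 under Python 3.11.15. E15.5 was not analysed here.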

Additional observations from a re-analysis of the deposited data

How the results depend on the processing

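No paired analysis was possible because each genotype has a single library. With the highest row per gene in place of the sum, 2 of the 10 genes were past 1.5-fold in place of 0, Pecam1 at 0.69 and Pdgfrb at 0.88 on the log2 scale. This setting takes 1 of 2 transcripts in the Rcor2fl/fl library and the whole gene in the Rcor2cko library, and so lowers the former by construction. With the other pseudocounts, the scalings and rows of status OK, it stayed at 0. The stricter thresholds and the other filters could not raise it, since all 10 genes pass the filter already. Of 78 values of single genes under the alternatives, the other 76 moved by less than their counting interval. The median log2 change of the 10 genes ranged from 0.13 to 0.23 over 9 alternatives. The ratio of the endothelial sums ranged from 1.07 to 1.12 and that of the pericyte sums from 1.36 to 1.42, each over 5. Tie1 turned positive, at 0.019, with upper-quartile scaling. Scaling moved the median of all genes by less than 0.1 on the log2 scale. Depth limits Tek, Esam and Flt1 most, with 102, 123 and 127 fragments in the Rcor2fl/fl library. None of these values speaks to the spread between embryos of 1 genotype, which 1 library each cannot show.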
